A study of Rattus norvegicus with 6 samples.

Results

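The genes described here are 10 genes of the heart's contractile, calcium-release and natriuretic apparatus, measured in rat lung: Myh6, Myh7, Myl4, Myl7, Tnnt2, Tnni3, Actc1, Mybpc3, Nppa and Ryr2. They were chosen by name as genes of cardiac muscle, and all 10 were found among the 21210 gene names that had at least 1 annotated transcript in the deposited table. In rodents, the wall of the pulmonary veins carries a sleeve of cardiac muscle that runs from the left atrium into the lung. A lung sample can therefore hold cardiomyocytes that contract with the atrium. Thick filaments built from myosin heavy and light chains pull on thin filaments of actin and troponin in these cells, and calcium released through the ryanodine receptor switches the troponin.

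Lung tissue was taken from Sprague-Dawley rats that were 7 weeks old at the start. The control group (3 rats) received saline, and the PF model group (3 rats) received a single intratracheal dose of bleomycin at 7 mg/kg, an agent that injures the alveoli and is followed by scarring, and both groups were sampled after 28 days. Ribosomal RNA was removed, and each rat gave 1 library, sequenced from both ends over 150 bases. The libraries are called Control_1 to Control_3 and Model_1 to Model_3. FPKM, fragment numbers scaled by transcript length and library size, were summed over all transcripts that carried the same gene name, so that levels of different genes can be compared per length. Lung identity was plain in the libraries: the 9 lung epithelial markers found in the table summed to between 10070 and 13044 FPKM, led by Scgb1a1 of club cells and Sftpc, Sftpa1 and Sftpb of alveolar type 2 cells, whereas the 10 cardiac muscle genes summed to between 7.07 and 34.3 FPKM. Coverage corresponded to between 35778630 and 41112682 reads per library.

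Model_3 stood apart from the other 5 libraries in these genes, and the group comparison and the correlations were therefore also computed without it. The sum of the 10 genes was 12.2 FPKM in Control_1, 7.60 in Control_2, 10.5 in Control_3, 7.07 in Model_1, 7.89 in Model_2 and 34.3 in Model_3. The other PF model libraries thus lay within or below the range of the control libraries. Actc1 alone made up between 66.2% and 80.4% of the sum in the 5 other libraries and 40.2% in Model_3. Without Actc1, the remaining 9 genes summed to between 1.75 and 3.07 FPKM in those 5 libraries and to 20.5 FPKM in Model_3. In bulk tissue a larger number of cardiomyocytes and more RNA per cardiomyocyte cannot be told apart.

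**Figure D1:**
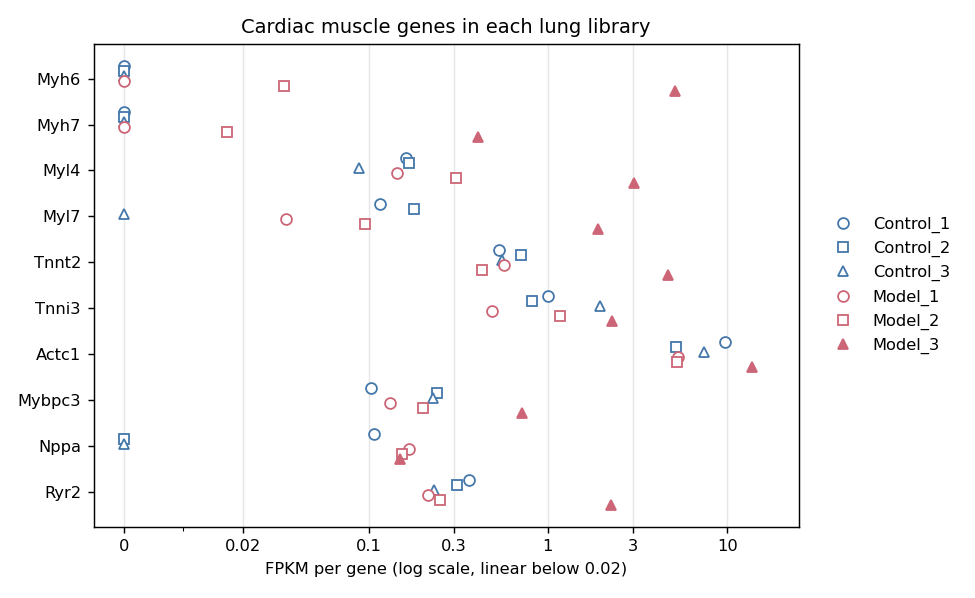
FPKM of each of the 10 genes on the x axis (log scale, linear below 0.02), with 1 point per library; control libraries are blue and PF model libraries are red, and Model_3 is the filled triangle. Model_3 is the highest library for 9 of the 10 genes, and Nppa is the exception.

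Of the 10 genes, 9 were highest in Model_3, against 23.6% of the 19203 gene names tested, which do not include Myh6 and Myh7. In 6 of them (Myh6, Myh7, Myl4, Myl7, Tnnt2 and Ryr2) Model_3 reached at least 3 times the next library with an FPKM of at least 0.3, a margin met by 91 of all 21210 gene names (0.429%). The same margin was met by 62 or fewer gene names in each control library, by 32 in Model_1 and by 66 in Model_2, and none of these libraries held a cardiac muscle gene among them. The promoter windows of 4 of the 6 genes with that margin in Model_3, and of Nppa, which did not meet it, are shown. They show what the transcribed genes have in front of them. Each runs 5′ to 3′ on the strand of the gene, from 250 bases before to 50 bases after the start in RefSeq's GRCr8 build, and capitals mark matches on either strand to 4 short motifs. These were TATAAA, the core promoter box that sets the start, and CATTCC, the MCAT element of muscle genes. The others were AGATAA, a form of the site of the heart's GATA factors, and CAAGTG, the core site of the cardiac factor Nkx2-5. Other forms of the GATA site, such as the TGATAA in the Nppa window, were not searched. Myh6 lies at chr15:32411648-32411947 (minus strand), Myl4 at chr10:89975900-89976199 (plus), Myl7 at chr14:84996575-84996874 (minus), Tnnt2 at chr13:49818873-49819172 (plus) and Nppa at chr5:163711934-163712233 (plus).
Myh6: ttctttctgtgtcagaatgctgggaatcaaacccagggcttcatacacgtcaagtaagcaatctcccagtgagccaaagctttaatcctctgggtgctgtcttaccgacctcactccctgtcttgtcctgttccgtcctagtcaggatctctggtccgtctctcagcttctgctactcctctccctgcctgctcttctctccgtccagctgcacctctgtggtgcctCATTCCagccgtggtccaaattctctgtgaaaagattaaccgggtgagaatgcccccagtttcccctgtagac
Myl4: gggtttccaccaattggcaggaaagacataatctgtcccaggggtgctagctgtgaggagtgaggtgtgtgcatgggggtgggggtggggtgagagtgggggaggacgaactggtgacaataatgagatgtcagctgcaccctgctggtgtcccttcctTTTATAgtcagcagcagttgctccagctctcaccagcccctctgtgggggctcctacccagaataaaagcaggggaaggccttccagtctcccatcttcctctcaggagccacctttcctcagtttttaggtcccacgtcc
Myl7: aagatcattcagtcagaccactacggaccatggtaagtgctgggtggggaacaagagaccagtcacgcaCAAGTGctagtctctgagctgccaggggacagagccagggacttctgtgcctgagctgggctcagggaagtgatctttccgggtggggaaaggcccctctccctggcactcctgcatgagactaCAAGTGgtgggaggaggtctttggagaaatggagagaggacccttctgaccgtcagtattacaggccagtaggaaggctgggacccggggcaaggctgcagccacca
Tnnt2: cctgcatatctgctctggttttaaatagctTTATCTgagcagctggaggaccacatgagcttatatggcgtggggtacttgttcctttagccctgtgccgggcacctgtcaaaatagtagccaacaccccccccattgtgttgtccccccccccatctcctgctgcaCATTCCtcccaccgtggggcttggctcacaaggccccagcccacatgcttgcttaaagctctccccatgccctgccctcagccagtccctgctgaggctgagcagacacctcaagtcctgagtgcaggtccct
Nppa: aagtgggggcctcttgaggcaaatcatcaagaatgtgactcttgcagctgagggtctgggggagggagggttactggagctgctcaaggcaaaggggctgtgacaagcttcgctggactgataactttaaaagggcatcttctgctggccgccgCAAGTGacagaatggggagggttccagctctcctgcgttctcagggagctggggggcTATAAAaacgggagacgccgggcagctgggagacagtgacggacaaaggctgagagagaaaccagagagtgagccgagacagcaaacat
The Myh6 window held 1 MCAT match, at position -23 from the start. The Tnnt2 window held an MCAT match at -83 and a GATA match on the opposite strand at -220. Myl7 held 2 matches to the Nkx2-5 core site, at -181 and -57, and Nppa held 1 such match at -96 with a TATA box at -39. The TATAAA letters in Myl4 lay on the opposite strand. Over 33465 RefSeq windows of the same length, 14.2% held the TATA letters, 14.2% the MCAT letters, 11.6% the GATA letters and 14.1% the Nkx2-5 core site, so single matches of this length are frequent. The core site overlaps the E-box (CANNTG), which 72.1% of all windows and 9 of the 11 windows of the cardiac muscle genes held. Of the 11 windows of the cardiac muscle genes, 2 held the TATA letters and 2 the MCAT letters. The GATA letters were in 2 of them and the Nkx2-5 core site in 3. Myh7 and Ryr2, which also met the margin, held no match to these 4 motifs. Neither did Actc1 or a further window of Tnnt2. Among the windows not shown, Tnni3 held a GATA match on the opposite strand at -22, and Mybpc3 held an Nkx2-5 core site at -159. In addition, a MEF2 site was found in Mybpc3 and a CArG box in Actc1, which occurred in 3.29% and 1.64% of all windows. The letters describe the windows and do not show that a factor was bound.

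Of the thick filament genes, the myosin chains Myh6, Myh7, Myl4 and Myl7 had the 4 largest margins of Model_3 among the 10 genes, and Mybpc3 had a smaller one. Myh6 (chr15:33605654-33629699, minus strand, in the coordinates of the deposited table, whose build is not given in the sources used here) encodes alpha myosin heavy chain, the fast motor of the atrium and of the adult rodent heart. Its level was listed at 0 FPKM in all 3 control libraries and in Model_1, at 0.0339 in Model_2 and at 5.11 in Model_3. The Model_3 value was 150.7 times that of Model_2, the only other library with any signal, and rested on about 1418 estimated reads against 9.0 in Model_2. Myh7 (chr15:33634422-33656089, minus strand), the slow beta motor encoded next to Myh6, was likewise listed at 0 in 4 libraries, at 0.0173 FPKM in Model_2 and at 0.407 in Model_3. In Model_3 the level of Myh6 was 12.6 times that of Myh7. The coding sequences of both motors are closely alike, so reads may have been split between them in the authors' quantification.

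Neither myosin heavy chain gene passed the filter of FPKM above 0 in at least 3 of the 6 libraries, so neither was part of the test across all genes. Fitted without that filter, the group difference on the log2(FPKM + 1) scale was 0.89 (SE 0.70, adjusted p = 0.923) for Myh6 and 0.17 (SE 0.13, adjusted p = 0.923) for Myh7 in limma. The group means of 0 and 1.72 ± 2.94 FPKM (SD, n = 3) for Myh6 and of 0 and 0.141 ± 0.230 FPKM (SD, n = 3) for Myh7 show that the spread within the PF model group exceeded the difference. With Model_3 left out, Model_2 alone held signal for either gene.

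Both atrial light chains were highest in Model_3, with different libraries next. Myl4 (chr10:92628356-92638100, plus strand), the atrial essential light chain that stiffens the lever of the myosin head, measured 0.162, 0.168 and 0.0889 FPKM in the control libraries and 0.145, 0.308 and 3.02 FPKM in the PF model libraries. Model_3 was 9.81 times the next library, which was Model_2, while Model_1 lay among the controls. Myl7 (chr14:86143862-86147553, minus strand), the atrial regulatory light chain, measured 0.116, 0.18 and 0 FPKM in the controls and 0.0345, 0.0953 and 1.92 FPKM in the PF model libraries. Model_3 was 10.7 times the next library, Control_2, and the groups overlapped for both light chains. Mybpc3 (chr3:79940561-79958730, plus strand), cardiac myosin binding protein C, which tethers and brakes the myosin heads, was at 0.103, 0.241 and 0.229 FPKM in the controls and at 0.133, 0.2 and 0.715 FPKM in the PF model libraries. Its margin in Model_3 was 2.96-fold, smaller than those of the light chains and just under the 3-fold line. In Model_3 the level of Myl4 was 1.58 times that of Myl7.

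Of the thin filament genes, Tnnt2 had a wide margin in Model_3, whereas Tnni3 and Actc1 had narrow ones. Tnnt2 (chr13:52662996-52680990, plus strand), cardiac troponin T, which anchors the troponin complex to tropomyosin, measured 0.536, 0.708 and 0.553 FPKM in the controls and 0.572, 0.432 and 4.65 FPKM in the PF model libraries, so Model_3 exceeded the next library 6.57-fold and the other 5 lay close together. Tnni3 (chr1:72882806-72886488, plus strand), cardiac troponin I, the inhibitory subunit, measured 1.002, 0.812 and 1.96 FPKM in the controls and 0.487, 1.17 and 2.27 FPKM in the PF model libraries. Model_3 was only 1.15 times Control_3, and the groups interleaved. Actc1 (chr3:105507403-105512939, minus strand), cardiac alpha actin, which smooth muscle can also express, was the most abundant of the 10 genes in each library. Its levels were 9.78, 5.18 and 7.44 FPKM in the controls and 5.32, 5.23 and 13.8 FPKM in the PF model libraries, and Model_3 was 1.41 times Control_1. Model_1 and Model_2 were thus at the low end of the control range for Actc1.

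Ryr2 (chr17:65535403-65955606, minus strand), the ryanodine receptor that releases calcium from the sarcoplasmic reticulum, measured 0.363, 0.31 and 0.231 FPKM in the controls and 0.214, 0.25 and 2.26 FPKM in the PF model libraries. Model_3 was 6.23 times Control_1, and the other PF model libraries lay at the lower end of the controls. Nppa (chr5:164808323-164809705, plus strand), which encodes atrial natriuretic peptide, the hormone secreted by stretched atrial muscle, had another pattern. It was at 0.107 FPKM in Control_1, was listed at 0 in Control_2 and Control_3, and measured 0.167, 0.154 and 0.15 FPKM in Model_1, Model_2 and Model_3. All 3 PF model libraries lay above all 3 controls, and Model_3 was the lowest of them. These levels rested on 4.41, 0 and 0 estimated reads in the controls and on 7.20, 6.0 and 6.13 in the PF model libraries, so 23.7 estimated reads carried the whole comparison.

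Transcript-level values showed which part of each gene carried the signal. For Tnni3, the annotated transcript of 8 exons was at 0, 0.233 and 0.186 FPKM in the controls and at 0, 0.189 and 0.961 FPKM in the PF model libraries, a 4.12-fold margin of Model_3. The rest of Tnni3 came from an assembled transcript of 4 exons within the gene, at 1.002, 0.579 and 1.78 FPKM in the controls and 0.487, 0.985 and 1.31 FPKM in the PF model libraries. Control_3 was highest for the assembled form and Model_3 for the annotated form, so the sum used for the gene mixes differently ordered parts. For Tnnt2, the annotated transcript of 14 exons was at 0.125, 0.453 and 0.316 FPKM in the controls and at 0.414, 0.257 and 2.35 FPKM in the PF model libraries, and Model_3 was 5.19 times the next library. An assembled stretch of 519 bases within an intron of Tnnt2 added between 0.158 and 0.41 FPKM in the other 5 libraries and 2.30 FPKM in Model_3. For Ryr2, the annotated transcript of 109 exons was at 0.363, 0.31 and 0.231 FPKM in the controls and at 0.214, 0.25 and 0.874 FPKM in the PF model libraries. An assembled Ryr2 transcript of 12 exons was listed at 0 in those 5 libraries and measured 1.39 FPKM in Model_3, on 85.4 estimated reads. With the annotated transcript alone, the margin of Model_3 for Ryr2 was 2.41-fold and no longer reached 3-fold.

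**Figure D2:**
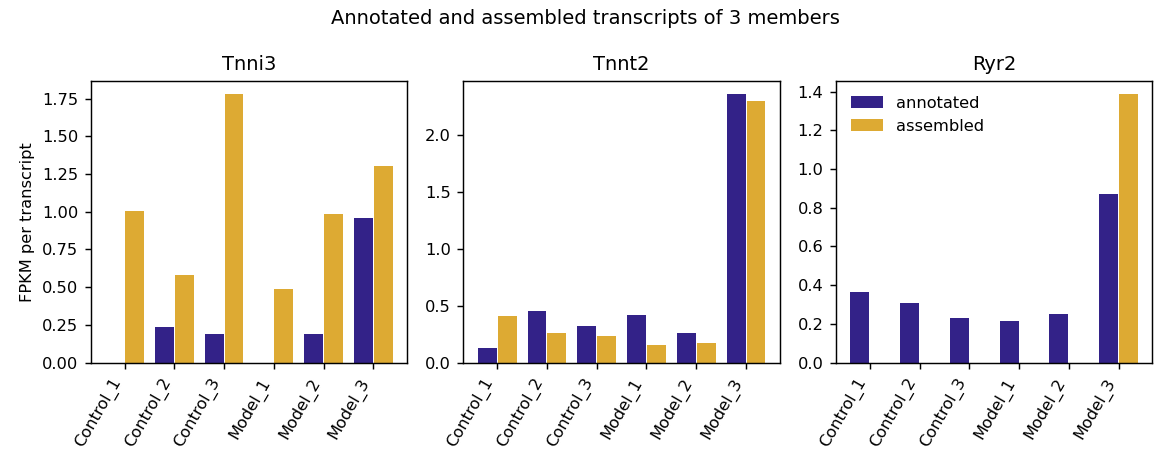
FPKM on the y axis of the annotated transcript (dark bars) and of the most abundant assembled transcript (yellow bars) of Tnni3, Tnnt2 and Ryr2 in the 6 libraries; each bar is 1 library, with no error bar. Control_3 is highest for the assembled Tnni3 transcript at 1.78 FPKM, whereas Model_3 is highest for every other transcript drawn.

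The design asks whether PF model lungs differed from control lungs. A gene was called at an unadjusted p of at most 0.05 with group means at least 1 log2 unit apart, thresholds taken from the methods of the study, in a limma fit over all 19203 gene names that passed the filter. Of the 8 cardiac muscle genes that passed the filter, 1 was called (Nppa, higher), while 1.53% of all gene names were called in either direction, 0.687% as higher and 0.838% as lower. At a Benjamini-Hochberg adjusted p below 0.05, 0 of the 8 were called, against 2 of all gene names (0.0104%), and 1 of the 8 had an unadjusted p under 0.05, against 4.9% of all. Nppa was higher in the PF model group by 0.16 on the log2(FPKM + 1) scale (SE 0.056, unadjusted p = 0.0258, adjusted p = 0.934 in limma), with group means of 0.0357 ± 0.0619 and 0.157 ± 0.00914 FPKM (SD, n = 3), which corresponds to a log2 ratio of means of 2.14. Its groups did not overlap, which was also the case for 10.7% of all gene names tested, and the two-sided exact permutation test gave p = 0.1, the smallest that 3 rats against 3 allow. Among the controls Nppa was above 0 in Control_1 alone, so it passed the filter only through the PF model group, where it was higher. Its call and its lack of overlap are therefore not independent of the filter. No call on Nppa survived adjustment over all genes.

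The other 7 genes in the fit differed between the groups by less than the spread between rats allowed to resolve. Myl4 gave the largest value, 0.68 (SE 0.46, adjusted p = 0.934), with group means of 0.14 ± 0.0442 and 1.16 ± 1.62 FPKM (SD, n = 3). Tnnt2 gave 0.55 (SE 0.51) with means of 0.599 ± 0.095 and 1.88 ± 2.40 FPKM, and Myl7 gave 0.44 (SE 0.39) with means of 0.0986 ± 0.0911 and 0.682 ± 1.07 FPKM. In these 3 genes the SD of the PF model group was larger than its mean. Ryr2 gave 0.39 (SE 0.37), which became 0.12 with its annotated transcript only, and Mybpc3 gave 0.16 (SE 0.16). Actc1 was at 0.017 (SE 0.38), with means of 7.46 ± 2.30 and 8.11 ± 4.92 FPKM, and Tnni3 at -0.0088 (SE 0.32), with means of 1.26 ± 0.618 and 1.31 ± 0.898 FPKM. The median difference over the 8 genes was 0.28, and 7 of them were positive, beside a median of -0.01 over all gene names tested.

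Without Model_3, the same comparison of 2 PF model and 3 control libraries gave differences of the opposite sign for most genes. Of the 8 genes, 2 were positive and 6 negative, with a median of -0.06 beside -0.01 over all genes in that fit. The value of Myl4 was 0.10 (SE 0.082), that of Myl7 -0.042 (SE 0.086), that of Tnnt2 -0.090 (SE 0.096), that of Ryr2 -0.078 (SE 0.073) and that of Mybpc3 -0.028 (SE 0.079). The sign of Myl7, Tnnt2, Ryr2, Mybpc3 and Actc1 thus turned when 1 library was left out. Actc1 was at -0.40 (SE 0.24) and Tnni3 at -0.30 (SE 0.27). Nppa kept its size at 0.17 (SE 0.068) but had an unadjusted p of 0.0535 in limma, past the threshold, and the lowest adjusted p of any of the 8 genes was 0.986.

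**Figure D3:**
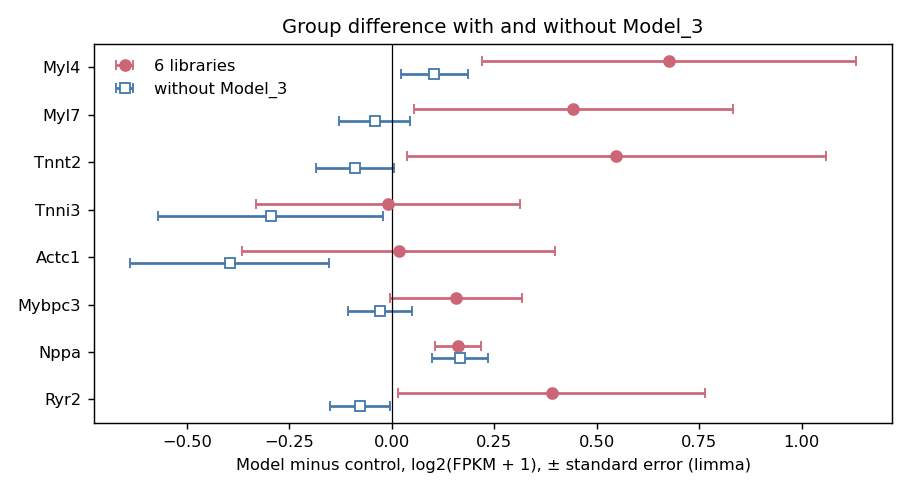
Difference between PF model and control groups on the x axis, in log2(FPKM + 1) units, for the 8 genes that passed the filter; points are limma estimates and bars are 1 standard error, for 6 libraries (red circles) and without Model_3 (blue squares). For Myl7, Tnnt2, Actc1, Mybpc3 and Ryr2 the estimate moves from above to below 0, whereas Nppa stays at 0.16 and 0.17.

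A content of cardiac muscle that varied between pieces of lung would move the genes together across libraries, so the correlations between genes were computed over the 6 libraries. Over the 45 pairs of genes, the median Pearson's r of log2(FPKM + 1) was 0.78 and the median Spearman's rho 0.38. All 21 pairs among Myh6, Myh7, Myl4, Myl7, Tnnt2, Mybpc3 and Ryr2 had an r of at least 0.94, with a median of 0.99 but a median rho of 0.51. These genes were grouped after the correlations were seen. Nppa stood outside, with r between -0.16 and 0.40 to the other 9 genes. The strongest pair in the exact permutation test over all 720 pairings was Myl7 with Ryr2 (r = 0.995, exact p = 0.0153, rho = 0.89, exact p = 0.0333). After Benjamini-Hochberg adjustment over the 45 pairs, the smallest exact p was 0.213 for Pearson's r and 0.6 for Spearman's rho, so 0 pairs passed.

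Without Model_3 the joint movement was not seen. Over the remaining 5 libraries the median r was 0.021, with a range from -0.75 to 1, and 23 of the 45 pairs were positive. The value of 1 belonged to Myh6 and Myh7, which were both above 0 in Model_2 alone, on 9.0 and 4.5 estimated reads. Both therefore had the same r to each of the remaining genes, so the counts of positive pairs hold repeated values. Myh6 and Tnnt2, for example, had an r of 0.99 over 6 libraries (exact p = 0.167, rho = 0.17) and of -0.75 without Model_3. When the 2 libraries farthest from the median of the first gene of each pair were left out, r could be computed for 28 pairs, with a median of 0.14 and 16 positive values. Among the 7 genes with r of at least 0.94, 15 of 21 pairs were positive without Model_3, with a median of 0.095, and 7 of the 10 pairs that could be computed without the 2 farthest libraries were positive, with a median of 0.55. As these 7 genes were picked by their correlations and the 15 pairs include repeated values, no conclusion is drawn from these counts. Centring each gene on its group mean left a median r of 0.87, as Model_3 also stood apart from its own group. The high correlations between the genes therefore rested on Model_3, and whether a smaller graded content varied among the other 5 libraries was not resolved with these values.

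**Figure D4:**
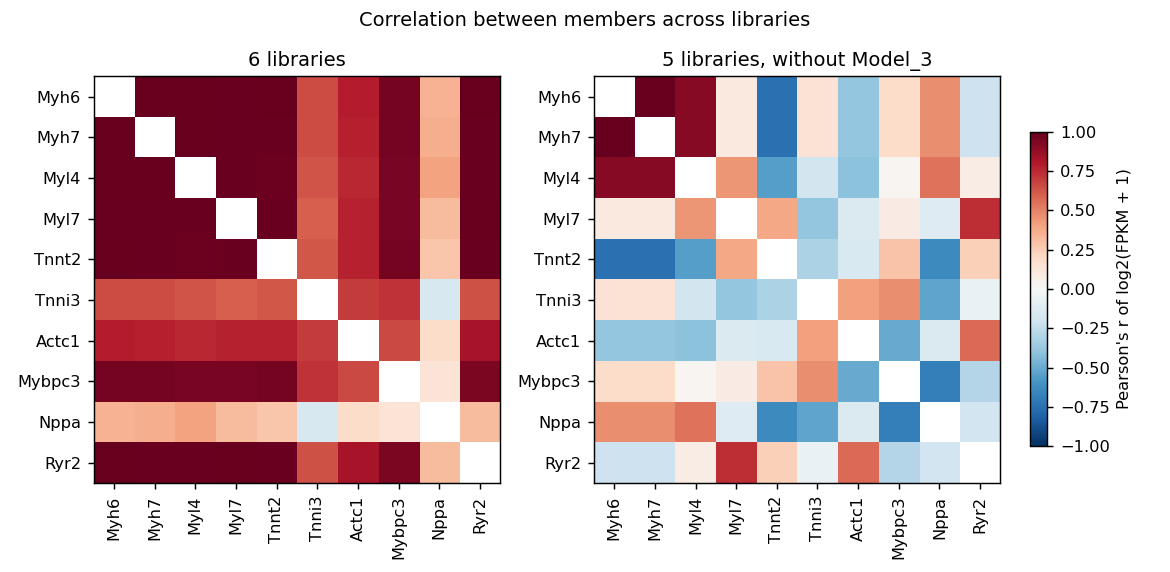
Pearson's r of log2(FPKM + 1) between each pair of the 10 genes, coloured from -1 (blue) to 1 (red), over 6 libraries (left) and over 5 libraries without Model_3 (right). The block of r of at least 0.94 among 7 genes on the left has 15 of 21 positive pairs with a median of 0.095 on the right, and the median over all 45 pairs there is 0.021. The block was chosen after the values were seen, and on the right Myh6 and Myh7 have the same r to each of the remaining genes.

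Other genes of cardiac muscle were read from lists chosen by function. Of all gene names tested, 23.6% were highest in Model_3 and 4.9% had an unadjusted p of at most 0.05 in limma. These shares stand beside the counts of this and the following lists. The counts of genes highest in Model_3 also hold names that were not tested. Of 21 further contractile genes in the table, 13 were highest in Model_3 and 3 met the 3-fold margin there: Actn2, which crosslinks actin at the Z disc (0.577 FPKM against at most 0.0407), Myoz2, which binds it there (0.375 against at most 0.0157), and Csrp3, the muscle LIM protein (0.819, listed at 0 in the other 5). Of the 18 tested, 1 was called as higher, beside 0.687% of all gene names: Smpx, a small muscle protein, at 0, 0.109 and 0 FPKM in the controls and 0.0934, 0.174 and 0.184 FPKM in the PF model libraries (adjusted p = 0.934 in limma). Like Nppa, Smpx passed the filter only through the PF model group, so its call is not independent of the filter. An unadjusted p under 0.05 was found for 2 of the 18, Smpx and Fhl2, a LIM domain protein that was lower in the PF model group by less than the fold needed for a call (-0.33, adjusted p = 0.934 in limma), and the median difference was 0.00. The 4 most abundant, Nebl, Tpm1, Cryab and Des, which many other cells also express, did not meet the 3-fold margin in Model_3. Des was highest there by 1.16-fold, and Nebl was lower there (55.7 FPKM) than in any other library (63.4 to 68.8). Of 19 genes of calcium handling and ion channels, 11 were highest in Model_3 and 2 met the margin: Sln, sarcolipin, which restrains the calcium pump of the atrium (1.32 FPKM against at most 0.358), and Srl, sarcalumenin (0.314 against at most 0.101). None of the 19 was called (1 had an unadjusted p under 0.05), with a median of 0.04, and Atp2a2, the calcium pump itself, which is not particular to the heart, was at 41.2 FPKM in Model_3 and between 24.5 and 32.9 in the others.

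Among 12 genes of muscle energy supply, 3 met the margin: Mb, myoglobin (1.998 FPKM, listed at 0 in the other 5, on 86.9 estimated reads), Ckmt2, mitochondrial creatine kinase (0.499, listed at 0 in the other 5), and Cox6a2, the striated muscle subunit of cytochrome oxidase (1.18 against at most 0.331). None of the 9 tested was called (0 had an unadjusted p under 0.05), with a median of 0.10. Among 16 cardiac transcription factors, Tbx20 met the margin (0.302 FPKM, listed at 0 in the other 5), 5 were highest in Model_3 and none of the 13 tested was called (1 had an unadjusted p under 0.05), with a median of -0.02. The most abundant of them, Nr2f2, Mef2a, Tbx3 and Tbx5, which lung cells also use, did not meet it. Of 5 genes of natriuretic signalling in the table, 0 met the margin and none of the 4 tested was called (0 had an unadjusted p under 0.05). The 4 most abundant genes of the energy list (Cox7a1, Ppargc1a, Hspb6 and Cox8b), of the natriuretic list (the receptors Npr1, Npr2 and Npr3 and the protease Corin) and of the calcium and channel list (Atp2a2, Kcnq1, Gja5 and Cacna1c) did not meet the margin. Over all of these lists, 0 genes passed an adjusted p below 0.05. Several genes that met the margin rested on few estimated reads in Model_3. These were 18.1 for Sln, 20.2 for Myoz2, 25.1 for Tbx20, 25.8 for Cox6a2, 29.0 for Ckmt2 and 31.8 for Csrp3. Srl had 73.3 and Actn2 79.1. The level of Tbx20 lay just above the 0.3 FPKM that the margin required.

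Markers of the heart chambers and of other muscle were set beside the 10 genes. The shares over all gene names tested were again 23.6% for highest in Model_3 and 4.9% for an unadjusted p of at most 0.05. Of 7 atrial markers, 3 met the margin in Model_3 (Myl4, Myl7 and Sln), whereas Nppa, Gja5, Bmp10 and Dkk3 did not. Gja5 was at 17.5 FPKM in Model_3 against at most 17.4 in the others. Bmp10 was at 0.407 against at most 0.49, and Dkk3 at 2.06 against at most 9.87. Of 3 ventricular markers in the table, Myh7 met the margin. Hey2 was highest in Model_3 without meeting it (1.27 FPKM against at most 0.983). Myl3, the ventricular essential light chain, was listed at 0 in Model_3 and at up to 0.337 FPKM elsewhere. Of 23 skeletal muscle markers named, 16 were in the table, without the myosins Myh1 and Myh2. Of these 16, 4 were highest in Model_3 and 0 met the margin, and their sum was 32.8 FPKM in Model_3 against 39.4 to 47.4 in the others. The 4 most abundant were Neb, Tnnt3, Mylpf and Mybpc2, and Neb, nebulin, was at 21.8 FPKM in Model_3 and between 31.9 and 32.6 in the others. The lower sum in Model_3 came from Neb, and the remaining markers together lay within the range of the others. Of 12 smooth muscle markers, led by Acta2, Mylk, Myh11 and Myl9, 8 were highest in Model_3 and 0 met the margin, and their sum was 329.9 FPKM there against 199.2 to 263.4. In limma, 0 of the 14 skeletal, 12 smooth muscle, 9 lung epithelial, 10 fibrosis and 6 mesothelial and epicardial genes tested were called, and 1 of them, among the fibrosis genes, had an unadjusted p under 0.05. Acta2, smooth muscle actin, was at 88.5 FPKM in Model_3 and between 47.3 and 66.3 in the others. The part of smooth muscle in the values of Actc1 was not tested. The sum of 10 fibrosis genes, led by Col3a1, Fn1, Postn and Col1a1, was 573.0 FPKM in Model_3 against 398.6 to 484.5 in the others, 483.9 and 484.5 of these in Model_1 and Model_2 and 476.1, 454.6 and 398.6 in the controls, and its part in the result was not tested.

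**Figure D5:**
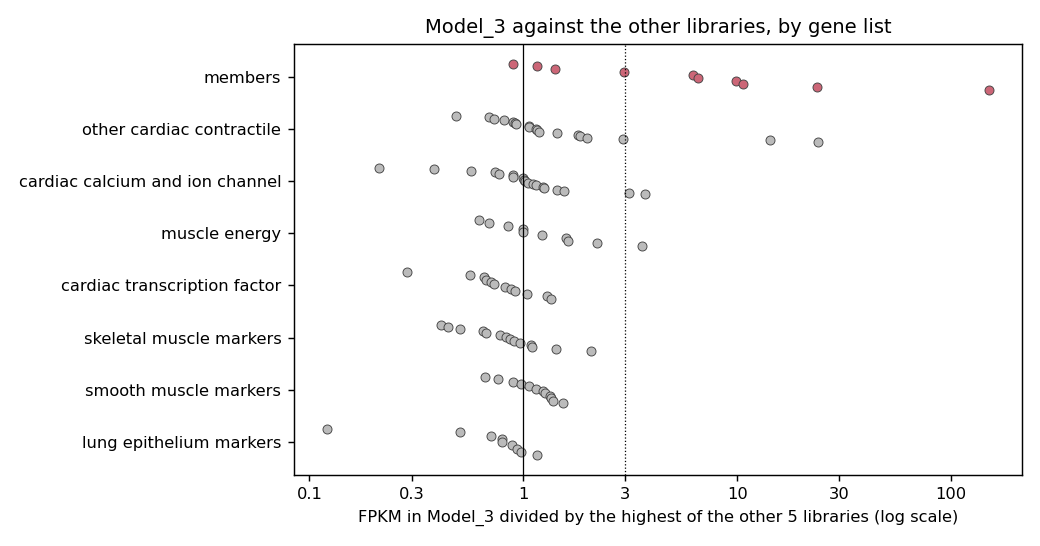
FPKM in Model_3 divided by the highest of the other 5 libraries on the x axis (log scale), with 1 point per gene that was above 0 in at least 1 other library and in Model_3, for the 10 genes and 7 other lists; the solid line marks 1 and the dotted line 3. The skeletal muscle, smooth muscle and lung epithelial markers hold no gene past the dotted line.

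Gene names outside muscle also stood apart in Model_3, and they were of many kinds. The highest levels among them were those of Dolpp1, an enzyme of dolichol metabolism (11920 FPKM against at most 2.87 in the other 5 libraries), Fmnl3, a formin (364.1 against at most 62.6), and H3f3a, a histone H3 gene (152.1 against at most 39.7). The ribosomal protein gene Rps20 was at 39.9 FPKM against at most 10.7. These levels are sums over annotated and assembled transcripts of a gene name. Which transcripts carried them was not examined, so they need not be expression of the annotated gene. Airway genes were also among them. Bpifa1, a secreted protein of large airways, was at 95.8 FPKM against at most 0.135 in the other 5 libraries, and Muc5b, a gel-forming mucin, at 22.2 against at most 3.68. Scgb3a1, a secretoglobin of airway cells, was at 47.0 FPKM against at most 6.45. The basal cell keratins Krt5 (0.577 against at most 0.0962) and Krt15 (1.24 against at most 0.228) met the margin as well. These 9 genes were chosen after their values were seen, and their part in the result was not tested. Of the 813 gene names with a mean FPKM of at least 1 and an SD of at least 0.5 on the log2 scale, the 10 most like the mean of Tnnt2, Tnni3 and Actc1 over the 6 libraries were Zbtb16 (r = 0.973), Gp2 (0.969), Scgb3a1 (0.955), Cyp2f4 (0.955), RF00012 (0.951), Scin (0.947), Cd177 (0.931), Cfi (0.930), Spire2 (0.928) and Cyp2a3 (0.924). These values are a description over libraries of which Model_3 carries most of the variation, and none of the 10 is in a cardiac list used here. Set against Myh6 alone, a choice added after the data were seen, the 10 most alike (r from 0.976) were LOC108348048, Bpifa1, Dolpp1, Hmg1l1, H3f3a, Spire2, AABR07027015.1, Nacc1, Ccdc107 and Rps20, and Spire2 was the 1 name in both sets.

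Circular RNAs gave no reading of these genes. Of the 5216 circRNAs in the deposited table, 0 came from any of the 10 genes, with 2037 to 2964 back-splice reads per library, so that a share of up to 0.101% to 0.147% of back-splice reads would be allowed by a count of 0. The other cardiac lists were the source of 13 circRNAs from 9 host genes.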

How the data were processed

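Lung RNA of 3 control and 3 PF model rats was compared, grouped by the condition in the labels. After trimming (Cutadapt), mapping (Bowtie2, Tophat2) and assembly (StringTie), the authors deposited FPKM per transcript from StringTie and Ballgown, together with per-base coverage, a signal not scaled for depth. The submitters' processing notes also list HISAT2. The libraries were stranded, but the strand setting of the quantification and the genome build are not given in the sources used here. The circRNA table deposited by the authors holds counts of back-splice reads from CIRCexplorer, and its normalized SRPBM columns were not used. Assembly and FPKM estimation can divide reads between isoforms and between similar genes, which affects low values most.

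FPKM were summed per gene name over annotated and assembled transcripts. Gene names with FPKM above 0 in at least 3 of 6 libraries were compared on log2(FPKM + 1) with limma 3.58.1 (with trend, two-sided) in R 4.3.3, which understates changes of low genes. Calls took an unadjusted p up to 0.05 together with group means differing by 1 log2 unit or more. Single values were compared by exact permutation over 20 regroupings (smallest p 0.1) and correlations over 720 pairings. Read numbers were estimated from coverage, multiplied by transcript length over 150. A floor of 3 counts was used for circRNAs, covering counting error only. The number of reads behind a gene limits its precision.

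The 10 genes and the lists were chosen with earlier results of these data known. Named were all 10 genes, the 4 most abundant and any called gene of a list, isoforms, and the 10 gene names most like the mean of the 3 members with a mean FPKM of at least 1; genes named for their margin in Model_3 were chosen after their values were seen. Nkx2-5, Myl2, Ttn, Nppb and further listed names had no annotated transcript under that name and were not analysed here. In simulated data with normal noise, 200 of 19168 genes were changed by 2 log2 units, all with a mean log2(FPKM + 1) above 1. At an adjusted p below 0.05, limma recovered 92% of them with 12 false calls. Most of the 10 genes lay below that level, and smaller changes were not simulated, so the recovery does not apply to them. Alternatives were other pseudocounts, filters, scalings, isoform sums, an F test with a library covariate, a replicate block and leaving out each library. Promoter and miRNA sequences are from RefSeq (GRCr8). All 10 genes matched a promoter entry. Correlations and exact tests ran in Python 3.11.15 with scipy 1.17.1, numpy 2.4.6, pandas 2.3.3 and, for plots, matplotlib 3.10.9.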

Additional observations from a re-analysis of the deposited data

How the results depend on the processing

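The count of gene names called, 293, became 80 with a mean FPKM of at least 1, 519 with annotated transcripts only and 157 by the F test with a library covariate, and ranged from 302 to 396 when 1 library was left out. The count at an adjusted p below 0.05, 2, became 7 with annotated transcripts only, 0 by the F test and 0 with a replicate block, and ranged from 1 to 3 when 1 library was left out. Of the cardiac muscle genes 1 was called, and 0 were with a mean FPKM of at least 1 (which Nppa does not reach) or by the F test, in which Nppa was at 0.12. When 1 library was left out, the count ranged from 0 to 1: Nppa was called without Control_1 and not without any of the other 5, and its log2 difference ranged from 0.14 to 0.21 over all 6 settings. The difference of Tnni3, -0.0088, was 0.22 with annotated transcripts only, 0.027 as TPM and 0.37 by the F test. A pseudocount of 0.1 moved Myl4 from 0.68 to 1.52, Myl7 from 0.44 to 1.04, Mybpc3 from 0.16 to 0.44, Nppa from 0.16 to 1.01, Ryr2 from 0.39 to 0.68 and Tnni3 from -0.0088 to -0.077, with the side of the threshold kept. Ryr2 was at 0.16 with the sum weighted by length and at 0.12 with annotated transcripts only, and Tnni3 at -0.020 with the weighted sum. Leaving out 1 library gave -0.30 to 0.27 for Tnni3, -0.40 to 0.23 for Actc1, -0.028 to 0.27 for Mybpc3, -0.042 to 0.71 for Myl7, -0.078 to 0.63 for Ryr2, -0.090 to 0.90 for Tnnt2 and 0.10 to 1.01 for Myl4, the lowest value being that without Model_3 in each of these genes. The median correlation between the genes, 0.78, ranged from 0.021 (without Model_3) to 0.94. The causes of these changes were not tested, and some settings also held fewer genes or libraries.

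The replicate numbers did not pair the libraries: same-numbered control and model libraries had correlations of deviations of 0.0729, 0.0324 and -0.0754 over 13890 genes. With the replicate block 311 gene names were called, and Nppa remained the 1 cardiac muscle gene called (adjusted p = 0.926 in limma). Depth limits the low genes most: Nppa rested on 23.7 estimated reads in all.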

Other observations

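The microRNA gene Mir208b lies inside Myh7 on the same strand and belongs to the microRNAs carried by myosin genes. Its hairpin was listed at 0 FPKM in 5 libraries and at 0.523 FPKM in Model_3, on 2.69 estimated reads, and it was chosen after its values were seen. The mature rno-miR-208b-3p in RefSeq, with its seed (bases 2 to 8) in capitals, is shown to identify it.
rno-miR-208b-3p: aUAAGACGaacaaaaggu
These libraries measure the long precursor and not the mature microRNA.

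Ankrd1, a stretch-responsive protein of the sarcomere, was at 5.10 FPKM in Model_3 and between 2.04 and 2.58 FPKM in the other 5 libraries, and Corin, the protease that activates atrial natriuretic peptide, at 1.42 FPKM against 0.441 to 0.824. Dkk3, an atrial marker, had another order: it was highest in Control_2 at 9.87 FPKM and Model_2 at 8.65 FPKM, and Model_3 was at 2.06 FPKM. These genes were chosen after their values were seen.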
